A study of Mus musculus with 2 samples.

Results

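The genes described here are 38 type I interferon-stimulated genes, read across the immune cells of fibrotic mouse liver. The list was fixed by symbol, and each of the 38 symbols was present in both libraries, out of 55357 genes listed in all. Droplet single-cell RNA sequencing had been carried out on mouse liver in 2 groups with 1 library each. The groups were CCl4+IPA, in which mice given the hepatotoxin carbon tetrachloride (CCl4) also received indole propionic acid (IPA), a tryptophan metabolite of gut bacteria, and CCl4 alone. Both groups therefore carry the liver injury, and no library of uninjured liver was analysed here. The strain, age and dosing, and the number of animals pooled in a library, are not given in the sources used here. With 1 library per group there is no replicate error and no test. Every interval below is a 95% exact interval that covers counting error only.

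Type I interferons, the interferon alphas and interferon beta, bind the receptor IFNAR1 and IFNAR2, and the kinases JAK1 and TYK2 then pass the signal on to a transcription factor complex that holds STAT2 and IRF9. This complex binds the interferon-stimulated response element in the promoters of antiviral genes. In liver, circulating monocytes, neutrophils and plasmacytoid dendritic cells (pDCs) are known both as responders to interferon and, in the case of pDCs, as strong producers of it.

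The response element has a known core of GAAA repeats. The motif GAAANNGAAA was searched on both strands, overlapping matches counted, in the RefSeq promoter table of build GRCm38.p6, from 250 bases before to 50 bases after each annotated start. Of the 38 genes, 28 had a promoter in the table, and 14 of these (50.0%) held the motif, against 1079 of 27025 genes in the whole table (3.99%). A match is a description of the letters, not evidence of a site in use. The 7 stretches of 60 bases below, all upstream of the start, were picked from promoters that held the motif. Cmpk2, Oasl1, Ifit2 and Sp100, named below for high ratios or levels, had a promoter in the table but no match. Capitals mark the matches, which read TTTCNNTTTC where the motif is on the opposite strand of the gene.
Ifit1 (chr19:34640769-34640828, + strand): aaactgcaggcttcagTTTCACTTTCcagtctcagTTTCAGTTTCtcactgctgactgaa
Ifit3 (chr19:34583365-34583424, + strand): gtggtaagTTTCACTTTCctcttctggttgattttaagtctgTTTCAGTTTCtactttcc
Isg15 (chr4:156200856-156200915, - strand): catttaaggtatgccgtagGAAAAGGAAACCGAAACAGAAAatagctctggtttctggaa
Oas3 (chr5:120777700-120777759, - strand): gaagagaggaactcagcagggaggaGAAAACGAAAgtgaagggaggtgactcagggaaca
Rsad2 (chr12:26456538-26456597, - strand): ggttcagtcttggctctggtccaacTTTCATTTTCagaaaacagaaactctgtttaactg
Slfn5 (chr11:82951922-82951981, + strand): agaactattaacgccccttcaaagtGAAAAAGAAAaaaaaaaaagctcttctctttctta
Bst2 (chr8:71537565-71537624, - strand): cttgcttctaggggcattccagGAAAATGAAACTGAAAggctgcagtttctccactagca
Isg15 carried 3 overlapping matches, beginning 78 bases before its start, and Ifit1, Ifit3 and Bst2 carried 2 each. Oas3, Rsad2 and Slfn5 carried 1 each.

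Depth was 37983923 unique molecular identifiers (UMIs, counted transcripts) over 10471 barcodes for CCl4+IPA, and 45009730 UMIs over 10427 barcodes for CCl4. After filtering and removal of doublet calls, 10128 cells of CCl4+IPA and 10016 cells of CCl4 were kept. Cells were assigned to a class by marker genes, none of which is among the 38. The classes were monocytes (161 cells in CCl4+IPA, 192 in CCl4), neutrophils (1032 in CCl4+IPA, 830 in CCl4), pDCs (331 in CCl4+IPA, 354 in CCl4), type 2 conventional dendritic cells (cDC2; 65 in CCl4+IPA, 273 in CCl4), B cells (3241 in CCl4+IPA, 3743 in CCl4), T cells (3011 in CCl4+IPA, 2350 in CCl4) and natural killer cells or type 1 innate lymphoid cells (NK or ILC1; 1138 in CCl4+IPA, 541 in CCl4). Each class showed its own markers, with medians of 6 to 9 of them detected per cell. In cDC2-gated cells medians of at least 2 markers of the monocyte, pDC and NK or ILC1 lists were detected too. The pDC-gated cells carried medians of 3 cDC2 markers in CCl4+IPA and 4 in CCl4 and of 1 cDC1 marker in CCl4+IPA and 2 in CCl4. Monocytes of both libraries carried a median of 2 neutrophil markers, and NK or ILC1 cells of both a median of 2 T cell markers. A cluster of low-depth cells with markers of several types held 15 cells in CCl4+IPA and 553 in CCl4, of which 13 in CCl4+IPA and 492 in CCl4 were left ungated. The libraries shared 23 barcodes. With those cells left out, or with the mixed group left out, the summed ratio of each class stayed within its own counting interval.

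The libraries also differed across all genes. The ribosomal RNA gene Rn18s-rs5 took 8840 CPM (UMIs per 1000000 UMIs of the class) in monocytes of CCl4+IPA and 65710 CPM in those of CCl4, and it differed in the same direction in the other 6 classes. The median share of mitochondrial UMIs was lower in CCl4+IPA in each of the 7 classes, at 1.36% in CCl4+IPA and 2.87% in CCl4 monocytes. The summed level of 20 immediate early and dissociation stress genes was higher in CCl4+IPA in each class, at 31882 CPM in CCl4+IPA and 26672 CPM in CCl4 monocytes, and 46012 CPM in CCl4+IPA and 34644 CPM in CCl4 neutrophils. The part of these differences in the interferon-stimulated genes was not tested. The median gene of each of the 7 classes also had a higher CPM in CCl4+IPA, by 0.13 (neutrophils) to 0.28 (T cells) on the log2 scale. Each class is therefore read below beside its all-gene median.

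The 38 genes were higher in CCl4+IPA in monocytes and neutrophils by the widest margins, and their medians lay close to the shift of all genes in B, T and NK or ILC1 cells. A lower number of cells with a high level and a lower level in every cell give the same class sum, and the spread over cells is given further below. In monocytes the summed level was 5964 CPM in CCl4+IPA and 3375 CPM in CCl4, a ratio of 1.77 (1.70 to 1.84). In neutrophils it was 5311 CPM in CCl4+IPA and 3217 CPM in CCl4, a ratio of 1.65 (1.60 to 1.70). In pDCs it was 6034 CPM in CCl4+IPA and 5386 CPM in CCl4 (1.12, 1.09 to 1.15), and in cDC2 3645 CPM in CCl4+IPA and 2804 CPM in CCl4 (1.30, 1.24 to 1.37). The lymphoid ratios were 1.24 (1.21 to 1.27) in B cells, 1.17 (1.15 to 1.19) in T cells and 1.21 (1.18 to 1.249) in NK or ILC1 cells.

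**Figure D1:**
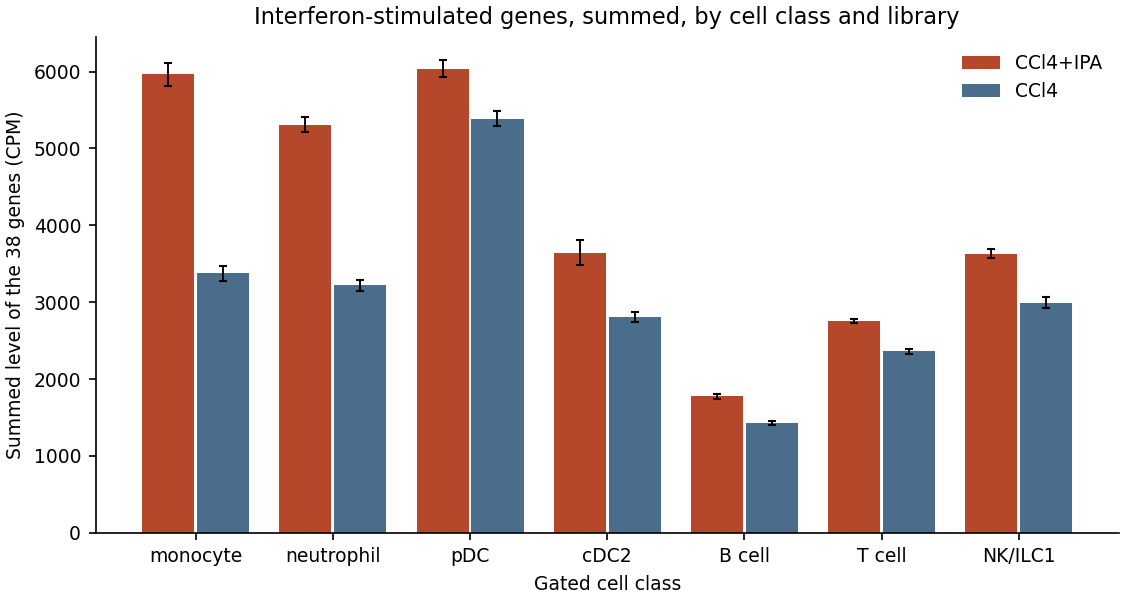
Summed level of the 38 genes, in CPM, in 7 gated cell classes of the CCl4+IPA library (left bars) and the CCl4 library (right bars), with 95% exact Poisson intervals of the counts. The monocyte bars stand at 5964 CPM in CCl4+IPA and 3375 CPM in CCl4 and the neutrophil bars at 5311 CPM in CCl4+IPA and 3217 CPM in CCl4, the widest gaps of the 7 pairs.

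A gene was counted as measured in a class where it had at least 20 UMIs over both libraries. In monocytes 37 of the 38 genes were measured, all 37 were higher in CCl4+IPA, and 28 were at least 1.5-fold higher. Among all 7829 genes measured in monocytes 16.6% were at least 1.5-fold higher and 5.42% at least 1.5-fold lower, while none of the 37 was lower by that fold. The median log2 ratio of the 37 was 0.83, beside 0.16 over all genes. In neutrophils 33 were measured, 30 were higher and 22 at least 1.5-fold higher (14.5% of 7758 genes), none at least 1.5-fold lower (5.3%), with a median of 0.71 beside 0.13. In pDCs 11 of 32 measured genes were at least 1.5-fold higher (16.7% of 9814 genes) and none lower (3.76%), with a median of 0.50 beside 0.19. In cDC2 14 of 38 were (20.1% of 8694 genes) and none lower (9.39%), with a median of 0.32 beside 0.16.

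In B cells 3 of 38 genes were at least 1.5-fold higher (16.9% of 12388 genes) and 1 at least 1.5-fold lower (3.41%). In T cells 5 of 38 were higher by that fold (17.7% of 13192 genes) and none lower (3.26%). In NK or ILC1 cells 9 of 36 were higher (19.1% of 10634 genes) and 1 lower (2.79%). The medians in these classes were 0.34, 0.28 and 0.28 on the log2 scale, beside all-gene medians of 0.27, 0.28 and 0.23. The share of B and T cell members past 1.5-fold was thus below that of all genes, and the share in NK or ILC1 cells a little above it.

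With the all-gene median of the class taken off, 37 of 37 genes in monocytes and 29 of 33 in neutrophils remained on the higher side. The counts at 1.5-fold were then 24 in monocytes (10.1% of all genes) and 16 in neutrophils (9.53%), with medians of 0.67 and 0.57. None was then at least 1.5-fold lower in monocytes (9.27% of all genes) or neutrophils (8.17%). In T cells 18 of 38 genes were then higher and 20 lower, with a median of -0.0087, 2 genes at least 1.5-fold higher (6.35%) and 1 at least 1.5-fold lower (6.47%). In B cells the split was 24 and 14, with none at least 1.5-fold higher (6.67%) and 2 lower by that fold (6.42%). In NK or ILC1 cells it was 19 and 17, with 4 higher by that fold (9.58%) and 1 lower (6.23%). In cDC2 24 were higher and 14 lower, with 7 past 1.5-fold on the higher side (13.3%) and 2 on the lower (13.2%). In pDCs the summed ratio turned to slightly below 1 under this scaling (log2 -0.028), while 26 of 32 genes stayed higher, 11 of them past 1.5-fold (8.86%), and 1 gene was at least 1.5-fold lower (7.49%).

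**Figure D2:**
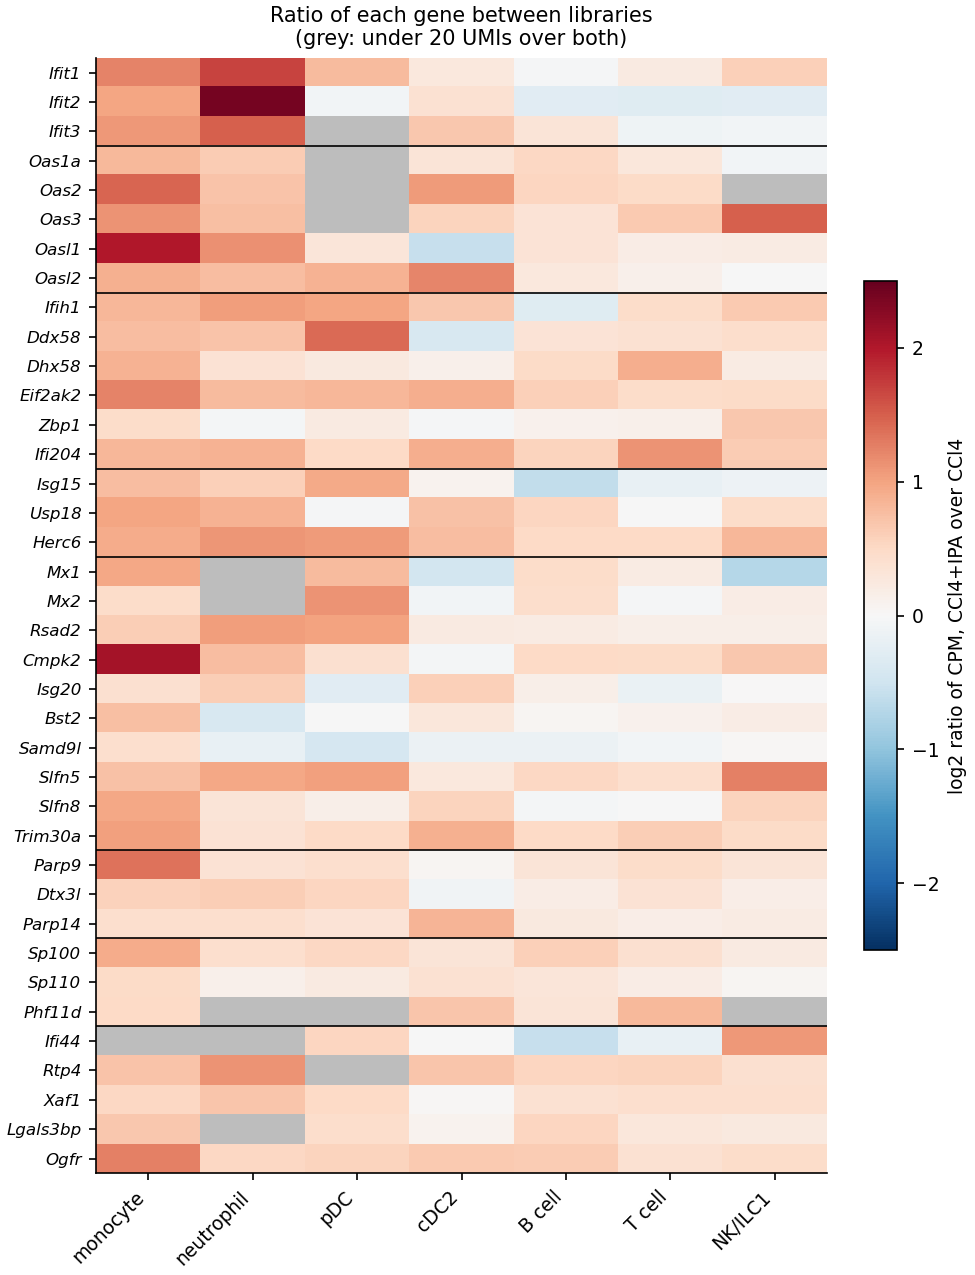
log2 ratio of CPM, CCl4+IPA over CCl4, for each of the 38 genes (rows, grouped by role) in 7 gated cell classes (columns), with genes under 20 UMIs over both libraries in grey. Monocyte and neutrophil columns are almost wholly red, with Cmpk2 and Oasl1 darkest in monocytes and Ifit2 in neutrophils, while the B, T and NK or ILC1 columns hold both colours.

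The IFIT family (Ifit1, Ifit2, Ifit3) encodes proteins that bind foreign RNA and block its translation, and it gave the highest ratios in neutrophils. Ifit1 stood at 247 CPM in CCl4+IPA neutrophils and 76.1 CPM in CCl4 neutrophils (3.25, 2.73 to 3.87). Ifit2 stood at 31.3 CPM in CCl4+IPA and 5.98 CPM in CCl4 (5.23, 2.91 to 10.1, from 67 UMIs in CCl4+IPA and 14 in CCl4), and Ifit3 at 123 CPM in CCl4+IPA and 44.0 CPM in CCl4 (2.80, 2.22 to 3.55). Their sum was 3.18-fold higher in neutrophils and 2.14-fold higher in monocytes. In monocytes the ratios of Ifit1, Ifit2 and Ifit3 were 2.38, 1.98 and 2.11.

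In T cells the family was split. Ifit1 had 273 CPM in CCl4+IPA and 233 CPM in CCl4 (1.17, 1.11 to 1.24), Ifit2 35.2 CPM in CCl4+IPA and 43.5 CPM in CCl4 (0.809, 0.705 to 0.927) and Ifit3 40.1 CPM in CCl4+IPA and 43.2 CPM in CCl4 (0.93, 0.81 to 1.06). The highest level of Ifit1 in any class was in NK or ILC1 cells, at 726 CPM in CCl4+IPA and 477 CPM in CCl4 (1.52, 1.42 to 1.63). Ifit3 was nearly absent from pDCs, with 2 UMIs in CCl4+IPA and 1 in CCl4. Ifit1 and Ifit3 have near copies in the mouse genome, and reads shared among copies make these 2 genes uncertain. The copy Ifit3b had 55.6 CPM in CCl4+IPA and 32.1 CPM in CCl4 neutrophils (1.73, 1.29 to 2.35), and Ifit1bl1 7.47 CPM in CCl4+IPA and 2.56 CPM in CCl4 (2.91, 1.08 to 9.09).

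The OAS family detects double-stranded RNA, and its enzymes make the oligoadenylates that activate RNase L. All 5 members were at least 1.5-fold higher in both monocytes (16.6% of all genes) and neutrophils (14.5%). Oasl1, a member without synthase activity that in mouse restrains translation of Irf7, had 75.02 CPM in CCl4+IPA and 18.7 CPM in CCl4 monocytes (4.00, 2.54 to 6.52) and 120 CPM in CCl4+IPA and 53.9 CPM in CCl4 neutrophils (2.22, 1.79 to 2.77). Oas2 had 71.1 CPM in CCl4+IPA and 25.9 CPM in CCl4 monocytes (2.74, 1.81 to 4.21). Oas3 had 138 CPM in CCl4+IPA and 63.4 CPM in CCl4 there (2.18, 1.66 to 2.88).

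Oasl2 was the most abundant member of the family in monocytes and neutrophils, and its neutrophil level of 582 CPM in CCl4+IPA and 340 CPM in CCl4 (1.71, 1.56 to 1.87) exceeded that of every other class. Oasl2 also had the highest ratio of the 38 genes in cDC2, 210 CPM in CCl4+IPA and 90.7 CPM in CCl4 (2.32, 1.83 to 2.92), where Oasl1 had the lowest (17.2 CPM in CCl4+IPA and 25.7 CPM in CCl4; 0.67, 0.29 to 1.35). In NK or ILC1 cells Oasl2 was level (10.8 CPM in CCl4+IPA and 10.96 CPM in CCl4), while Oas3 had 12.8 CPM in CCl4+IPA and 4.57 CPM in CCl4 from 52 UMIs in CCl4+IPA and 10 in CCl4 (2.80, 1.41 to 6.18). Oas1a belongs to a cluster of close copies and is uncertain for the same reason as Ifit1. It had 53.3 CPM in CCl4+IPA and 30.3 CPM in CCl4 monocytes (1.76, 1.16 to 2.70).

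Of the 6 nucleic acid sensors, 5 were at least 1.5-fold higher in monocytes (16.6% of all genes) and 4 in neutrophils (14.5%). Eif2ak2, the kinase PKR that halts translation on double-stranded RNA, had 111 CPM in CCl4+IPA and 46.8 CPM in CCl4 monocytes (2.36, 1.72 to 3.26), and it was higher in each of the 7 classes. Ifih1 and Ddx58, which encode the RNA helicase sensors MDA5 and RIG-I, had monocyte ratios of 1.78 (1.34 to 2.36) and 1.70 (1.22 to 2.39). Dhx58, the related helicase LGP2, had a ratio of 1.83 (1.30 to 2.57) in monocytes and, among lymphocytes, 16.0 CPM in CCl4+IPA and 8.51 CPM in CCl4 T cells (1.88, 1.45 to 2.45). Ddx58 had the highest ratio of the 32 measured genes in pDCs, but from 15 UMIs in CCl4+IPA and 7 in CCl4 (2.65, 1.02 to 7.70).

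Ifi204, a mouse DNA sensor, is a monocyte gene in these libraries. It had 621 CPM in CCl4+IPA monocytes and 349 CPM in CCl4 monocytes (1.78, 1.58 to 2.01), 162 CPM in CCl4+IPA and 88.9 CPM in CCl4 neutrophils (1.82, 1.53 to 2.17) and under 4 CPM in B cells of either library. It belongs to a family of similar genes, and its relatives Ifi211 (273 CPM in CCl4+IPA and 138 CPM in CCl4) and Ifi203 (406 CPM in CCl4+IPA and 258 CPM in CCl4) were higher in CCl4+IPA monocytes as well. Zbp1, a sensor of Z-form nucleic acid that can start necroptosis, was the least shifted of the sensors in monocytes, with 226 CPM in CCl4+IPA and 164 CPM in CCl4 (1.38, 1.15 to 1.67), and was level in neutrophils at 41.1 CPM in CCl4+IPA and 42.3 CPM in CCl4 (0.97, 0.72 to 1.31).

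The ISG15 system attaches a ubiquitin-like protein, ISG15, to other proteins, with Herc6 as the ligase in mouse and Usp18 as the enzyme that removes it and also restrains the interferon receptor. All 3 were at least 1.5-fold higher in monocytes (16.6% of all genes) and neutrophils (14.5%). Isg15 had 247 CPM in CCl4+IPA and 146 CPM in CCl4 monocytes (1.70, 1.40 to 2.05), 459 CPM in CCl4+IPA and 302 CPM in CCl4 neutrophils (1.52, 1.38 to 1.68) and 96.9 CPM in CCl4+IPA and 50.5 CPM in CCl4 pDCs (1.92, 1.52 to 2.44). The lymphoid classes ran the other way for Isg15. It stood at 14.5 CPM in CCl4+IPA and 22.2 CPM in CCl4 B cells (0.65, 0.52 to 0.82), 260 CPM in CCl4+IPA and 298 CPM in CCl4 T cells (0.87, 0.83 to 0.92) and 423 CPM in CCl4+IPA and 460 CPM in CCl4 NK or ILC1 cells (0.92, 0.85 to 0.99). Herc6 did not follow it there, with ratios of 1.40 (1.17 to 1.69), 1.41 (1.26 to 1.59) and 1.77 (1.39 to 2.29). Usp18 had 61.2 CPM in CCl4+IPA and 31.0 CPM in CCl4 monocytes (1.98, 1.32 to 2.99) and 20.1 CPM in T cells of both libraries.

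Among the 10 direct antiviral effectors, the mitochondrial nucleotide kinase Cmpk2 had the highest monocyte ratio of the 37 measured genes, 70.1 CPM in CCl4+IPA and 16.6 CPM in CCl4 (4.23, 2.61 to 7.09). Its chromosomal neighbour Rsad2, which encodes the radical enzyme viperin, had 144 CPM in CCl4+IPA and 94.4 CPM in CCl4 monocytes (1.53, 1.198 to 1.95). In CCl4+IPA neutrophils Rsad2 was the most abundant of the 38 genes, and in CCl4 neutrophils it came after Oasl2, at 642 CPM in CCl4+IPA and 312 CPM in CCl4 (2.06, 1.88 to 2.26). Cmpk2 had 107 CPM in CCl4+IPA and 62.4 CPM in CCl4 there (1.71, 1.39 to 2.12).

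Slfn5, a Schlafen-family gene, was the most abundant of the 38 in monocytes, with 734 CPM in CCl4+IPA and 444 CPM in CCl4 (1.65, 1.49 to 1.84). It was higher in CCl4+IPA in neutrophils too (359 CPM in CCl4+IPA and 184 CPM in CCl4; 1.95, 1.73 to 2.20), in pDCs (125 CPM in CCl4+IPA and 61.8 CPM in CCl4; ratio 2.02) and in NK or ILC1 cells (42.8 CPM in CCl4+IPA and 17.8 CPM in CCl4; 2.40, 1.69 to 3.49). Trim30a, whose product dampens Toll-like receptor signals in mouse, had 338 CPM in CCl4+IPA and 165 CPM in CCl4 monocytes (2.05, 1.73 to 2.43) and was also higher in every other class, by 1.29-fold (neutrophils) to 1.86-fold (cDC2). Trim30a, Slfn8 and Phf11d have near copies too, and are uncertain for the same reason as Ifit1. Mx1, a dynamin-like GTPase that blocks influenza virus in mice with an intact allele, had 75.02 CPM in CCl4+IPA and 38.2 CPM in CCl4 monocytes (1.96, 1.37 to 2.85) but 16.0 CPM in CCl4+IPA and 26.0 CPM in CCl4 NK or ILC1 cells (0.61, 0.42 to 0.89). It was nearly absent from neutrophils, with 2 UMIs in CCl4+IPA and 7 in CCl4, as was Mx2, with 2 UMIs in each library.

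Bst2 encodes tetherin, which holds budding virus at the cell surface and serves as a surface marker of mouse pDCs. It made up 60.8% of the summed level of the 38 genes in CCl4+IPA pDCs and 68.7% in CCl4 pDCs, at 3671 CPM in CCl4+IPA and 3701 CPM in CCl4 (0.99, 0.96 to 1.02). Without Bst2 the other 37 genes summed to 2364 CPM in CCl4+IPA and 1685 CPM in CCl4 pDCs, a ratio of 1.40 (1.34 to 1.46). In monocytes Bst2 had 348 CPM in CCl4+IPA and 207 CPM in CCl4 (1.69, 1.44 to 1.98), and in neutrophils, where it is scarce, 27.5 CPM in CCl4+IPA and 36.3 CPM in CCl4 (0.76, 0.53 to 1.07). The promoter stretch of Bst2 shown above holds the same motif as those of Ifit1 and Isg15.

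Samd9l, which restrains growth and viral replication, was lower in CCl4+IPA in 5 of the 7 classes. It had 188 CPM in CCl4+IPA and 209 CPM in CCl4 B cells (0.90, 0.84 to 0.96), where it ranked second in abundance among the 38, and 56.8 CPM in CCl4+IPA and 75.7 CPM in CCl4 pDCs (0.75, 0.59 to 0.96). In monocytes it had 107 CPM in CCl4+IPA and 79.3 CPM in CCl4 (1.35, 1.02 to 1.77). Isg20, an RNA exonuclease, had the lowest monocyte ratio of the 37 measured genes, 46.4 CPM in CCl4+IPA and 35.3 CPM in CCl4 (1.31, 0.86 to 2.00).

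The ADP-ribosyltransferase Parp9 and the ubiquitin ligase Dtx3l form a complex that strengthens interferon signals, and Parp14 is a related transferase. In monocytes Parp9 had 79.0 CPM in CCl4+IPA and 31.0 CPM in CCl4 (2.55, 1.74 to 3.78), beside Dtx3l (116 CPM in CCl4+IPA and 78.5 CPM in CCl4; 1.48, 1.13 to 1.94) and Parp14 (165 CPM in CCl4+IPA and 124 CPM in CCl4; 1.33, 1.07 to 1.66). In cDC2 the order differed, with ratios of 1.03 for Parp9, 0.94 for Dtx3l and 1.80 (1.37 to 2.34) for Parp14.

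Sp100, a component of nuclear bodies, was the most abundant of the 38 genes in B and T cells, at 483 CPM in CCl4+IPA and 321 CPM in CCl4 B cells (1.505, 1.44 to 1.57) and 470 CPM in CCl4+IPA and 356 CPM in CCl4 T cells (1.32, 1.27 to 1.38). In monocytes it had 491 CPM in CCl4+IPA and 258 CPM in CCl4 (1.90, 1.66 to 2.19). The related Sp110 had lower ratios than Sp100 in 6 of the 7 classes, cDC2 being the exception, with 157 CPM in CCl4+IPA and 112 CPM in CCl4 monocytes (1.40, 1.11 to 1.75) and 158 CPM in CCl4+IPA and 152 CPM in CCl4 NK or ILC1 cells. Ogfr, the opioid growth factor receptor gene, had 122 CPM in CCl4+IPA and 51.2 CPM in CCl4 monocytes (2.39, 1.77 to 3.25), and Rtp4, a chaperone of membrane receptors, 366 CPM in CCl4+IPA and 168 CPM in CCl4 neutrophils (2.18, 1.93 to 2.47). Ifi44 had no UMI in neutrophils of either library, although pDCs carried 90.1 CPM in CCl4+IPA and 62.2 CPM in CCl4. A floor of 3 UMIs over the class in a library bounds it in neutrophils. In monocytes Ifi44 had 8 UMIs in CCl4+IPA and 1 in CCl4, too few to be counted as measured. The intervals of Mx2 (1.37, 0.67 to 2.79) and Phf11d (1.42, 0.82 to 2.45) reached below 1 in monocytes. Slfn8, a further Schlafen gene, had 116 CPM in CCl4+IPA and 59.8 CPM in CCl4 monocytes, and Xaf1, which promotes cell death, 123 CPM in CCl4+IPA and 85.7 CPM in CCl4 monocytes.

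**Figure D3:**
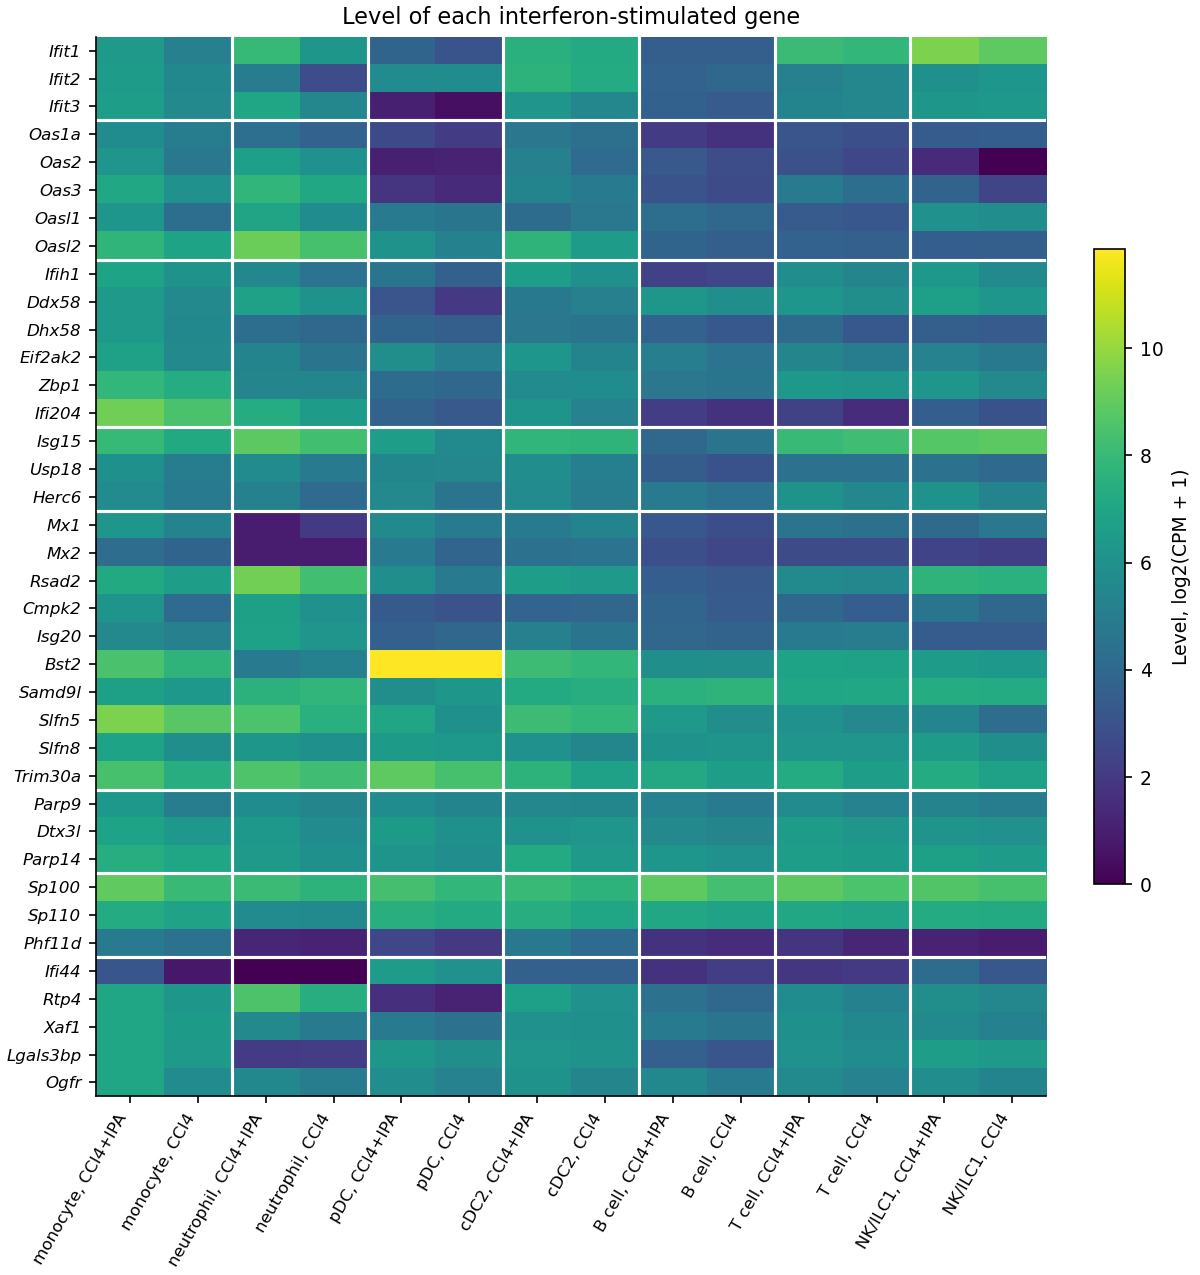
Level of each of the 38 genes, as log2(CPM + 1), in 7 gated cell classes, with CCl4+IPA left of CCl4 in each pair of columns. Bst2 in pDCs (3671 CPM in CCl4+IPA and 3701 CPM in CCl4) is the brightest row, Ifit1 is brightest in NK or ILC1 cells, and Oasl2 and Rsad2 in neutrophils.

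The genes with the highest levels differed from class to class. In CCl4+IPA the leading genes were Slfn5, Ifi204 and Sp100 in monocytes, Rsad2, Oasl2 and Isg15 in neutrophils, Bst2 and Trim30a in pDCs, Sp100 in B and T cells, and Ifit1 and Isg15 in NK or ILC1 cells. Lgals3bp, a secreted glycoprotein, had 130 CPM in CCl4+IPA monocytes and 82.1 CPM in CCl4 monocytes but under 4 CPM in neutrophils of either library. Over the classes in which each gene was measured, 18 of the 38 genes (47.4%) were higher in CCl4+IPA in every class, beside 35.9% of the 14580 genes measured in at least 1 class. A gene measured in few classes meets this more easily. Among genes measured in all 7 classes, 13 of 28 members (46.4%) met it, beside 26.6% of 6030 genes. With the all-gene median of each class taken off, 10 of the 38 (26.3%) were still higher in every class measured, beside 18.4% of those 14580 genes. The 10 were Oas2, Oas3, Eif2ak2, Ifi204, Herc6, Slfn5, Trim30a, Phf11d, Rtp4 and Ogfr. Of these, Eif2ak2, Ifi204, Herc6, Slfn5, Trim30a and Ogfr were measured in all 7 classes. These 6 were 21.4% of the 28 members measured in all 7 classes, beside 8.09% of the 6030 genes measured in all 7.

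The median ratio of the genes with the promoter motif lay above that of the genes without it in each of the 7 classes. The gap was small in neutrophils and B cells. In neutrophils the 14 measured genes with the motif had a median ratio of 1.66, and the 11 without it 1.62. In monocytes the medians were 1.86 for 14 genes and 1.59 for 13 genes. In pDCs they were 1.79 for 11 genes and 1.36 for 13 genes. These are descriptions of the list, and 10 of the 38 genes had no promoter entry.

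Whether a few cells or all cells carried the difference was read after thinning each cell to 1000 UMIs and summing the UMIs of the 38 genes in it. Shallower cells were left out, at 1 monocyte of CCl4+IPA and 3 of CCl4, 102 neutrophils of CCl4+IPA and 65 of CCl4, and up to 95 cells in the other classes. Thinned counts keep the ribosomal RNA difference and the all-gene shift described above. Monocytes of CCl4+IPA had a mean of 6.02 and a median of 5 such UMIs per cell, and monocytes of CCl4 a mean of 3.28 and a median of 2. When cells were ranked and cut into deciles within each library, each of the 10 monocyte deciles was higher in CCl4+IPA. The fifth decile averaged 4.38 UMIs in CCl4+IPA and 2.00 in CCl4 and the top decile 18.1 UMIs in CCl4+IPA and 12.3 in CCl4. The top decile held 21.3% of the summed difference, beside 30.0% of the 38-gene UMIs in CCl4+IPA and 36.9% in CCl4. At least 5 UMIs were found in 53.8% of CCl4+IPA monocytes (45.7 to 61.7%) and 22.8% of CCl4 monocytes (17.0 to 29.4%), and without thinning in 97.5% in CCl4+IPA and 87.0% in CCl4.

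Neutrophils were higher across the ranks as well. Their mean was 5.95 UMIs in CCl4+IPA and 3.61 in CCl4, with medians of 4 in CCl4+IPA and 2 in CCl4. The top decile averaged 24.1 UMIs in CCl4+IPA and 14.4 in CCl4 and held 42.0% of the difference. That is close to its share of the 38-gene UMIs themselves, 40.6% in CCl4+IPA and 39.5% in CCl4. The variance over cells was 11.1 times the mean in CCl4+IPA and 6.16 times the mean in CCl4, beside 4.37 times in CCl4+IPA and 5.33 times in CCl4 monocytes. This quotient can rise with the mean itself, so it does not separate a change of spread from a change of level. Cells with at least 10 UMIs made up 17.5% of CCl4+IPA neutrophils (15.1 to 20.1%) and 8.24% of CCl4 neutrophils (6.39 to 10.4%), and without thinning 37.0% in CCl4+IPA and 29.2% in CCl4. Without the top decile of cells in each library the means were 3.93 UMIs in CCl4+IPA and 2.42 in CCl4 neutrophils and 4.68 UMIs in CCl4+IPA and 2.30 in CCl4 monocytes.

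In T cells the top decile held 41.6% of a small difference in means (2.94 UMIs in CCl4+IPA and 2.48 in CCl4), and in NK or ILC1 cells 60.6% (3.45 UMIs in CCl4+IPA and 3.06 in CCl4). Its share of the 38-gene UMIs was 36.2% in CCl4+IPA and 35.2% in CCl4 T cells. In NK or ILC1 cells that share was 39.2% in CCl4+IPA and 36.5% in CCl4. The seventh, eighth and ninth deciles of NK or ILC1 cells differed by 0.10 UMIs or less, at 5.89 UMIs in CCl4+IPA and 5.84 in CCl4 for the ninth. In pDCs each decile was higher, with means of 6.02 UMIs in CCl4+IPA and 5.20 in CCl4 and 31.2% of the difference in the top decile. The top decile of pDCs held 22.9% of the 38-gene UMIs in CCl4+IPA and 21.8% in CCl4. Bst2, level in CPM between the libraries, made up 60.8% of the pDC sum in CCl4+IPA and 68.7% in CCl4. In cDC2, of which only 65 cells were in the CCl4+IPA library, each decile was higher and the top decile held 33.6% of the difference. Its share of the 38-gene UMIs was alike, at 32.4% in CCl4+IPA and 33.5% in CCl4. The median gene was itself higher in CCl4+IPA, by 1.22-fold in T cells, 1.17-fold in NK or ILC1 cells, 1.14-fold in pDCs and 1.11-fold in cDC2. The part of that shift in the deciles was not tested.

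**Figure D4:**
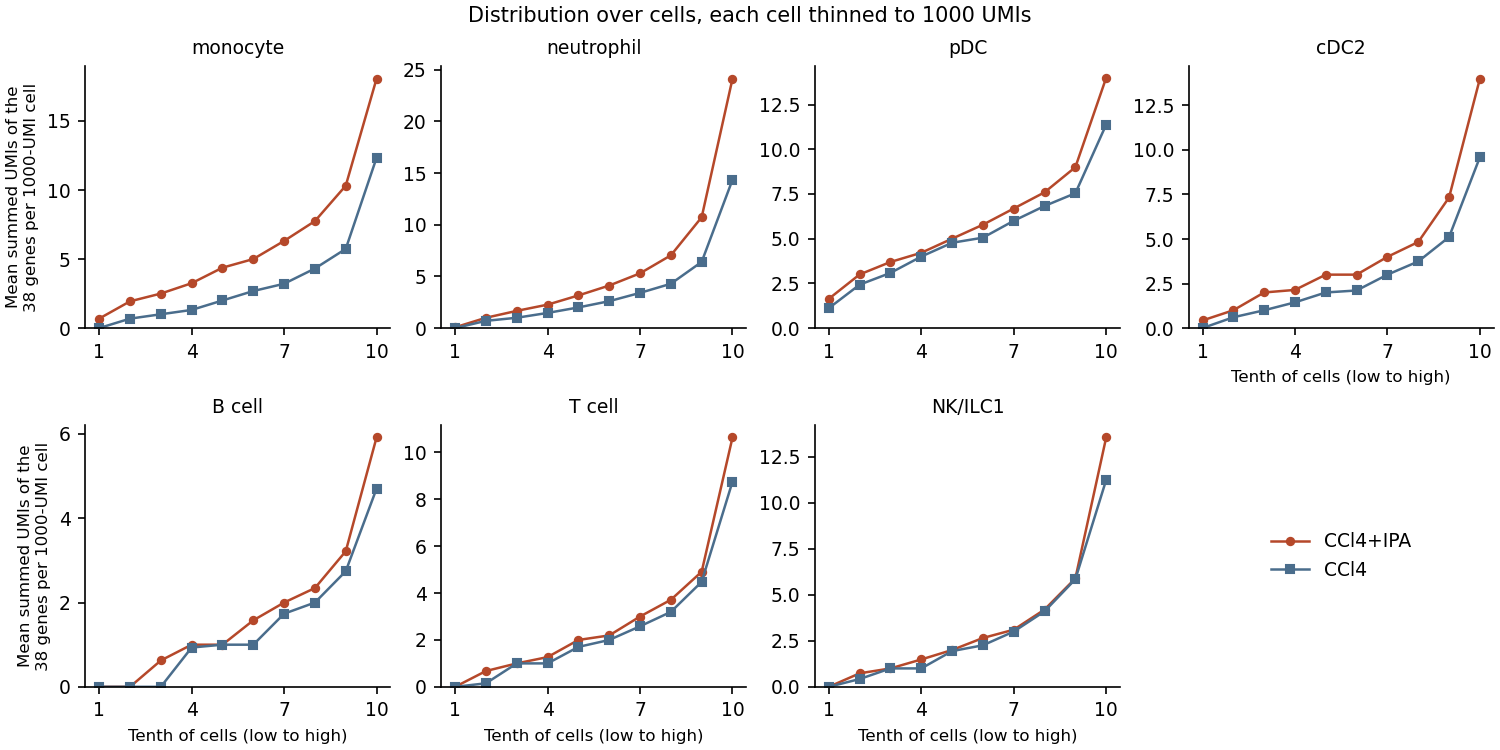
Mean summed UMIs of the 38 genes per cell, each cell thinned to 1000 UMIs, in deciles of cells ranked from low to high within each library (CCl4+IPA circles, CCl4 squares), for 7 gated classes, each with its own vertical scale. The monocyte lines stand apart along their whole length, the neutrophil lines part most in the top decile (24.1 UMIs in CCl4+IPA and 14.4 in CCl4), and the NK or ILC1 lines lie close together up to the ninth decile.

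Cells were also counted by how many of the 38 genes they held. The share past a limit rises with the mean number of genes detected per thinned cell. In monocytes that mean was 4.79 in CCl4+IPA and 2.70 in CCl4. The shares therefore cannot show that the genes occur together beyond their level. At least 5 of the 38 genes were detected in 44.4% of thinned CCl4+IPA monocytes (36.5 to 52.4%) and 19.6% of thinned CCl4 monocytes (14.2 to 26.0%). In neutrophils the shares were 32.9% in CCl4+IPA (29.9 to 36.0%) and 16.6% in CCl4 (14.03 to 19.4%), in pDCs 14.2% in CCl4+IPA and 7.16% in CCl4, and in B cells 3.75% in CCl4+IPA and 1.97% in CCl4. In NK or ILC1 cells the shares were 13.2% in CCl4+IPA (11.2 to 15.3%) and 11.1% in CCl4 (8.52 to 14.2%). In cDC2 they were 16.9% in CCl4+IPA (8.76 to 28.3%) and 13.9% in CCl4 (10.04 to 18.6%). T cells had 10.5% in CCl4+IPA (9.42 to 11.7%) and 8.33% in CCl4 (7.24 to 9.53%). These intervals cover the counting of cells within a library, so their overlap or separation is not a test between the groups. No such share is given here for other genes. The part of the all-gene shift in these shares was not tested.

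Single genes differed in how widely they were spread. Slfn5 was detected in 43.8% of thinned CCl4+IPA monocytes and 26.5% of thinned CCl4 monocytes, and Ifi204 in 45.6% in CCl4+IPA and 29.6% in CCl4. Ifi204 was detected in 0.191% of CCl4+IPA and 0.108% of CCl4 B cells, which served as its background at the same depth. No class served as a background for Slfn5, whose share in NK or ILC1 cells was 3.31% in CCl4+IPA and 0.975% in CCl4. Ifit1 was found in few neutrophils, 12.6% in CCl4+IPA and 5.49% in CCl4 after thinning (17.9% in CCl4+IPA and 9.88% in CCl4 before), with 0.795% of CCl4+IPA and 0.567% of CCl4 B cells as the background. The positive neutrophils held means of 2.86 Ifit1 UMIs per cell in CCl4+IPA and 2.17 in CCl4 without thinning, with up to 30 in CCl4+IPA and 14 in CCl4. Ifit1 in NK or ILC1 cells was concentrated in both libraries alike, in 20.4% of CCl4+IPA and 17.3% of CCl4 thinned cells, and the decile of cells with the most Ifit1 held 77.5% in CCl4+IPA and 76.4% in CCl4 of its UMIs.

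Within the gates, the ratio varied with the subset. The subsets were defined after the data had been seen, by marker counts or by the leading genes of clusters. Monocytes with more of the classical markers Ccr2, F13a1, Vcan and Chil3 (137 cells in CCl4+IPA, 140 in CCl4) had a summed ratio of 1.65 (1.58 to 1.72), and the median log2 ratio of the measured genes was 0.77 beside 0.18 over all genes. Those with more of the nonclassical markers Cd300e, Ace, Treml4 and Adgre4 (17 cells in CCl4+IPA, 44 in CCl4) had 5694 CPM in CCl4+IPA and 2099 CPM in CCl4, a ratio of 2.71 (2.38 to 3.09). In these nonclassical-marker cells 17 genes were measured, all were higher and 14 at least 1.5-fold, where 55.6% of all 2401 measured genes were higher and 19.5% at least 1.5-fold. Their median log2 ratio was 1.16 beside an all-gene median of 0.086, and they included Trim30a with 370 CPM in CCl4+IPA and 112 CPM in CCl4 (3.29, 1.87 to 5.86). Neutrophils of the cluster led by Csf3r and also by Cxcr2, a chemokine receptor of mature cells (903 cells in CCl4+IPA, 667 in CCl4), had 6374 CPM in CCl4+IPA and 3810 CPM in CCl4, a ratio of 1.67 (1.62 to 1.73) and a median log2 ratio of 0.66 beside 0.12 over all genes. Those of the cluster led by the granule genes Ngp and Ltf (126 cells in CCl4+IPA, 139 in CCl4) had 2403 CPM in CCl4+IPA and 2058 CPM in CCl4, a ratio of 1.17 (1.09 to 1.26) and a median of 0.29 beside 0.11. In the Csf3r and Cxcr2 cluster Ifit2 had 41.3 CPM in CCl4+IPA and 5.38 CPM in CCl4 from 64 UMIs in CCl4+IPA and 8 in CCl4 (7.67, 3.67 to 18.5). In the Ngp and Ltf cluster Rtp4 had the highest ratio (162 CPM in CCl4+IPA and 75.9 CPM in CCl4; 2.14, 1.53 to 3.01) and Samd9l the lowest (249 CPM in CCl4+IPA and 339 CPM in CCl4; 0.74, 0.60 to 0.90). The ratios of the subsets were not tested against each other.

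Most NK or ILC1 cells lay in 2 clusters with different levels. The cluster led by Klrb1b and Xcl1 (516 cells in CCl4+IPA, 163 in CCl4) had 4834 CPM in CCl4+IPA and 4302 CPM in CCl4 (1.12, 1.08 to 1.17), and the cluster led by Klra4, Klra8 and Prf1 (571 cells in CCl4+IPA, 352 in CCl4) had 2392 CPM in CCl4+IPA and 2236 CPM in CCl4 (1.07, 1.02 to 1.12). The median log2 ratio was 0.35 in the Klrb1b and Xcl1 cluster beside 0.25 over all genes, and 0.14 in the Klra4, Klra8 and Prf1 cluster beside 0.20. Both summed ratios were below the pooled ratio of 1.21, and the cluster with the higher level held a larger share of NK or ILC1 cells in CCl4+IPA than in CCl4. Ifi44 in the Klrb1b and Xcl1 cluster had 30.3 CPM in CCl4+IPA and 7.38 CPM in CCl4 from 61 UMIs in CCl4+IPA and 6 in CCl4 (4.11, 1.78 to 11.6).

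Among T cells the cluster led by Dapl1 and Lef1, genes of resting T cells, had the smallest ratio, 1957 CPM in CCl4+IPA and 1863 CPM in CCl4 (1.05, 1.01 to 1.09). Its median log2 ratio of 0.050 lay below the all-gene median of 0.30. In this cluster 1 gene of 36 was at least 1.5-fold higher (21.6% of all genes) and 3 at least 1.5-fold lower (2.06%). There Ifit1 had 84.8 CPM in CCl4+IPA and 152 CPM in CCl4 (0.56, 0.48 to 0.65) and Ifit3 20.5 CPM in CCl4+IPA and 34.9 CPM in CCl4 (0.59, 0.43 to 0.81). The cluster led by haemoglobin genes and, after them, Cd40lg and Icos had a ratio of 1.28 (1.23 to 1.34), that with Cd8a and Ccl5 1.23 (1.201 to 1.27), that with Foxp3 1.22 (1.16 to 1.29) and that with Mki67 1.24 (1.16 to 1.31). Their median log2 ratios were 0.48 for Cd40lg and Icos beside 0.25 over all genes, 0.34 for Cd8a and Ccl5 beside 0.28, 0.41 for Foxp3 beside 0.27 and 0.34 for Mki67 beside 0.23. In the Foxp3 cluster Rsad2 had 99.2 CPM in CCl4+IPA and 33.3 CPM in CCl4 (2.98, 1.88 to 4.92) while Isg15 had 482 CPM in CCl4+IPA and 579 CPM in CCl4 (0.83, 0.73 to 0.95). Among B cells the Ighd cluster (1343 cells in CCl4+IPA, 2353 in CCl4) had a ratio of 1.36 (1.32 to 1.41), with a median log2 ratio of 0.51 beside 0.31 over all genes. The Cd83 cluster (1833 cells in CCl4+IPA, 1225 in CCl4) had 1.16 (1.12 to 1.197), with a median of 0.14 beside 0.24.

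**Figure D5:**
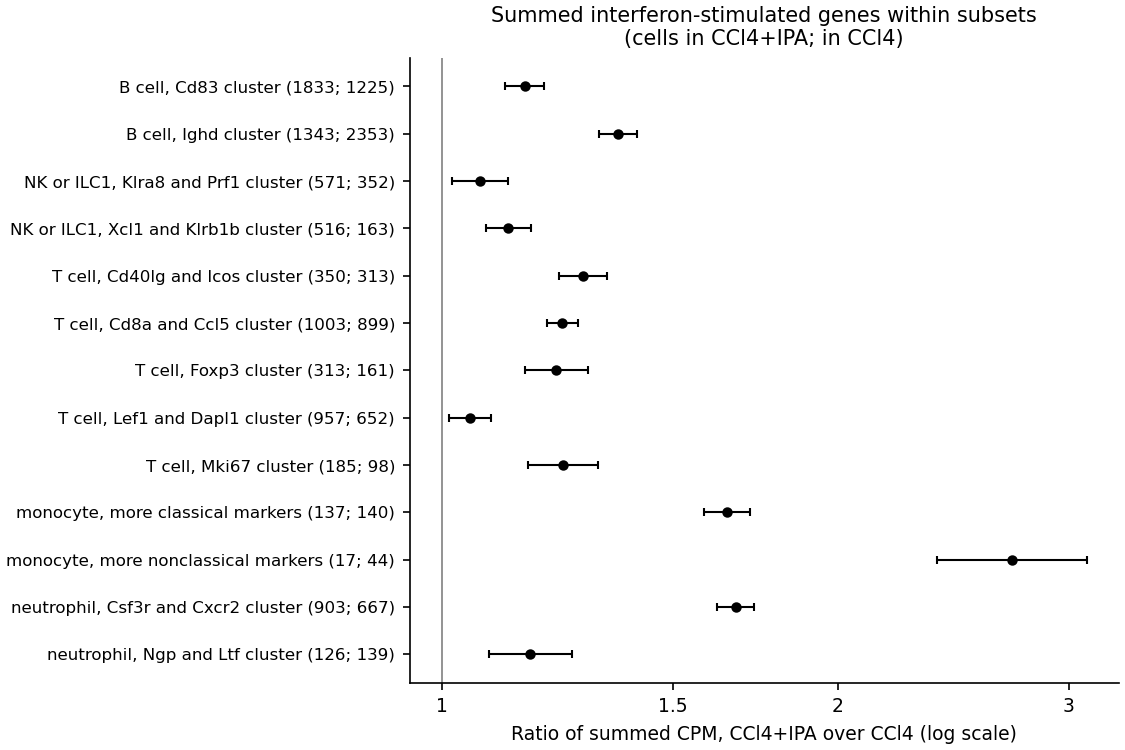
Ratio of the summed CPM of the 38 genes, CCl4+IPA over CCl4, on a log scale with 95% exact conditional binomial intervals, in subsets of the gated classes with their cell numbers in each library. The nonclassical-marker monocytes lie farthest to the right at 2.71, and the Dapl1 and Lef1 cluster of T cells (named Lef1 and Dapl1 on the axis) lies nearest to 1 at 1.05.

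The pathway upstream of these genes was read from further lists. Of 20 genes for type I and III interferons, few UMIs were found in any class. The list summed to 8 UMIs in CCl4+IPA and 10 in CCl4 monocytes and to 1 UMI in CCl4+IPA neutrophils and none in CCl4 neutrophils. In pDCs Ifna2 had 28 UMIs in CCl4+IPA and 46 in CCl4 (14.6 CPM in CCl4+IPA and 19.3 CPM in CCl4; 0.75, 0.45 to 1.23). Ifnb1, the gene of interferon beta, had 3 UMIs in CCl4+IPA cDC2 and 93 in CCl4 cDC2, that is 5.73 CPM in CCl4+IPA and 35.7 CPM in CCl4 (0.16, 0.03 to 0.48). Ifna2 ran the other way in cDC2, with 11 UMIs in CCl4+IPA and 5 in CCl4, too few to be counted as measured (21.0 CPM in CCl4+IPA and 1.92 CPM in CCl4; 10.9, 3.504 to 40.2). The whole ligand list summed to 28.7 CPM in CCl4+IPA and 37.7 CPM in CCl4 cDC2 (0.76, 0.41 to 1.32). The part of the pDC markers detected in cDC2-gated cells was not tested.

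In monocytes 65.9% of all measured genes were higher, and the lists of the pathway are read beside that share. Of 5 measured receptor genes 2 were higher and none past 1.5-fold (16.6% of all genes). Their median log2 ratio was -0.047, beside 0.16 over all genes. Ifnar1 had 97.7 CPM in CCl4+IPA and 76.4 CPM in CCl4 (1.28, 0.96 to 1.70) and Ifnar2 167 CPM in CCl4+IPA and 136 CPM in CCl4 (1.23, 0.99 to 1.52) in monocytes.

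Among the signal transducers, Stat2 had 163 CPM in CCl4+IPA and 62.0 CPM in CCl4 monocytes (2.63, 2.01 to 3.45) and 33.1 CPM in CCl4+IPA and 17.5 CPM in CCl4 neutrophils (1.89, 1.27 to 2.85). Irf9 had 145 CPM in CCl4+IPA and 92.2 CPM in CCl4 monocytes (1.57, 1.23 to 2.01). The kinase gene Jak1 was close to the all-gene shift in monocytes, at 188 CPM in CCl4+IPA and 169 CPM in CCl4 (1.11, 0.91 to 1.35).

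Beside 16.6% of all genes in monocytes, 2 of 7 measured interferon regulatory factors were at least 1.5-fold higher there. These were Irf7, which drives interferon alpha genes (234 CPM in CCl4+IPA and 135 CPM in CCl4; 1.73, 1.42 to 2.10), and Irf1 (202 CPM in CCl4+IPA and 98.0 CPM in CCl4; 2.07, 1.65 to 2.58). In NK or ILC1 cells Irf7 had 96.4 CPM in CCl4+IPA and 122 CPM in CCl4 (0.79, 0.68 to 0.93). Of 9 measured negative regulators 7 were higher in monocytes, beside 65.9% of all genes. Socs1, an inhibitor of JAK kinases, had the highest ratio at 15.8 CPM in CCl4+IPA and 3.60 CPM in CCl4 from few UMIs (4.38, 1.53 to 15.3). Adar, which edits double-stranded RNA, had 79.0 CPM in CCl4+IPA and 42.5 CPM in CCl4 (1.86, 1.31 to 2.65).

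Interferon gamma, the type II interferon of NK and T cells, induces an overlapping set of genes. Among 16 interferon-inducible GTPase genes, which respond to both types, 10 were measured in monocytes, all 10 were higher and 8 at least 1.5-fold, beside 65.9% and 16.6% of all genes. Gbp7 had 78.0 CPM in CCl4+IPA and 25.2 CPM in CCl4 (3.09, 2.05 to 4.75) and Gbp2 75.02 CPM in CCl4+IPA and 26.7 CPM in CCl4 (2.81, 1.88 to 4.29) in monocytes. In pDCs 6 of 11 were at least 1.5-fold higher (16.7% of 9814 genes). Iigp1 led them with 166 CPM in CCl4+IPA and 41.6 CPM in CCl4 (3.98, 3.17 to 5.04). Ifng itself differed little in CPM in its main sources, at 681 CPM in CCl4+IPA and 653 CPM in CCl4 NK or ILC1 cells (1.04, 0.98 to 1.11) and 272 CPM in CCl4+IPA and 258 CPM in CCl4 T cells (1.05, 1.00 to 1.11). Its log2 ratio was 0.059 in NK or ILC1 cells, below the all-gene median of 0.23. In T cells it was 0.077, below the all-gene median of 0.28. In neutrophils Ifng had 35 UMIs in CCl4+IPA and 3 in CCl4, 16.3 CPM in CCl4+IPA and 1.28 CPM in CCl4, which is far below the NK or ILC1 level. Low counts of Ifng were also higher in B cells, at 70 UMIs in CCl4+IPA and 29 in CCl4 (3.32, 2.12 to 5.30). In pDCs they were 17 UMIs in CCl4+IPA and 5 in CCl4 (4.21, 1.49 to 14.6), in cDC2 5 in CCl4+IPA and 3 in CCl4, and in monocytes 4 in each library.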

How the data were processed

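Single cells from whole liver, freed with collagenase IV, papain and DNase, cleared of red and dead cells and run on the 10x Chromium 3' chemistry, were sequenced as 1 library per group, per the labels' protocols. The matrices the authors deposited hold raw UMI counts, and Cell Ranger 7.1.0 is named in their headers. Build mm9 is named per the submitters' processing notes. The gene IDs were used as given.

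A barcode was kept from 500 UMIs and 300 genes upward if mitochondrial RNA (37 genes) took less than 20% of its UMIs, and 331 Scrublet doublet calls in CCl4+IPA and 278 in CCl4 were removed. A cell was gated to the one of 18 marker lists of which it had the highest share detected, with at least 4 markers and a share at least 1.5 times that of the next list. UMIs were summed per class and library and scaled to CPM, with exact Poisson intervals for levels, exact conditional binomial intervals for ratios and Clopper-Pearson intervals for shares. UMIs remove PCR copies but intervals still cover counting error only. A count of 0 is bounded by 3 UMIs. Clusters came from 2000 variable genes, 30 principal components, 20 neighbours and Leiden resolution 1 (scanpy 1.11.5, leidenalg 0.10.2, Python 3.11.15, scipy 1.17.1), with seed 1 for these and for thinning. Interval code was tested on simulated counts.

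The members and lists were chosen with earlier results of these data known, and the gate limits after cell numbers and total member UMIs per class had been seen. The rule for names took all measured members in monocytes and, in other classes, the 4 highest and 4 lowest ratios and the 4 highest levels, with the same for further lists. Other values named in the text were chosen after they had been seen. Promoters were matched by symbol to RefSeq (GRCm38.p6), and no coordinate of the deposited files was used. No paired or replicate test exists with 1 library per group. A result on the signal transducers is not reported here.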

Additional observations from a re-analysis of the deposited data

Results flagged for a closer look

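A set of 4 genes had ratios whose counting intervals lay above 1 in one class and below 1 in another. The difference between classes was not tested. The ratio of Ifit2 was 5.23 in neutrophils and 0.809 in T cells. That of Isg15 was 1.92 in pDCs and 0.654 in B cells. That of Mx1 was 1.96 in monocytes and 0.614 in NK or ILC1 cells. That of Samd9l was 1.35 in monocytes and 0.750 in pDCs. Each of these classes carried the same direction of difference in Rn18s-rs5 and in stress genes, whose part was not tested.

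The 38 genes were also summed in cells outside the 7 classes. In macrophage-gated cells, of which there were 16 in CCl4+IPA and 81 in CCl4, the summed ratio was 1.37 (1.08 to 1.72), from 93 UMIs in CCl4+IPA and 349 in CCl4. Only 9 of the genes were measured there, with a median log2 ratio of 0.41 beside 0.014 over all genes. In ungated cells, 945 in CCl4+IPA and 1416 in CCl4, it was 1.14 (1.11 to 1.16). The median log2 ratio of the 38 genes in ungated cells, 0.17, lay below the all-gene median of 0.20, and 4 of 38 were at least 1.5-fold higher, beside 20.5% of 13640 genes.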

How the results depend on the processing

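Values are log2 ratios of CCl4+IPA over CCl4 unless given as counts of members past 1.5-fold, and the causes of the shifts were not tested. With CPM computed without abundant RNA, the medians were 0.67 in monocytes, 0.60 in neutrophils, 0.33 in pDCs, 0.16 in cDC2, 0.11 in B cells, 0.052 in T cells and 0.10 in NK or ILC1 cells, and the summed ratios 0.66, 0.61, -0.012, 0.22, 0.085, -0.000971 and 0.095. The counts became 24 higher in monocytes (10.4% of all genes) and 18 higher in neutrophils (10.4%). They became 1 lower in pDCs, 7 higher and 2 lower in cDC2, 0 higher and 2 lower in B cells, 2 higher in T cells and 4 higher in NK or ILC1 cells. With the all-gene median taken off, the medians were 0.67, 0.57, 0.31, 0.16, 0.063, -0.0087 and 0.054 and the summed ratios 0.66, 0.59, -0.028, 0.22, 0.039, -0.062 and 0.049. The counts were then the same except for 16 higher in neutrophils (9.53% of all genes) and 1 lower in T cells.

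With 200 genes as the one filter, and likewise with doublet calls kept, B cells had a median of 0.37, 7 higher and 0 lower, and Ifit1 in pDCs turned to -0.30. With clusters in place of gates, 1 was lower in neutrophils. The medians were then 0.43 in pDCs, 0.21 in cDC2 (summed 0.21, 7 higher), 0.20 in T cells (2 higher, 1 lower) and 0.39 in NK or ILC1 cells, and B cells had 6 higher and 0 lower. Isg20 (-0.22) and Phf11d (-0.49) turned in cDC2, and Phf11d (-0.601) in T cells. With the mean over cells, monocytes had 0.89 for both median and sum, neutrophils a median of 0.78 and 1 lower, B cells 5 higher and 0 lower, and NK or ILC1 cells a sum of 0.22. With a limit of 5 UMIs, 1 was lower in neutrophils. In monocytes with more classical markers the median was 0.77 and the sum 0.72. A stricter gate gave 0.39 and 2 lower in cDC2, and 0.39, 5 higher and 0 lower in B cells. For the mean thinned UMIs per cell, thinning to 2000 UMIs gave 0.59 in neutrophils, 0.25 in cDC2 and 0.29 in NK or ILC1 cells, and to 500 UMIs 0.39 in B cells. Without shared barcodes 1 was lower in cDC2, without near-identical copies the NK or ILC1 median was 0.24, and without the top decile of cells the monocyte mean of thinned UMIs gave 1.03.

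Over these settings the median ran from 0.67 to 0.89 in monocytes and from 0.57 to 0.78 in neutrophils. Depth limits the cDC2 (65 cells in CCl4+IPA) and nonclassical-marker monocyte values (17 cells). No paired analysis was possible because each group has 1 library.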
